A study of Homo sapiens with 8 samples.

Results

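The genes described here are those of MHC class I antigen presentation, namely the heavy chains HLA-B, HLA-C, HLA-E and HLA-F, the light chain B2M, the peptide transporter subunits TAP1 and TAP2, the loading factor TAPBP and the transcriptional activator NLRC5. They were taken by gene symbol from the annotation of an Agilent 60K gene expression array. All 9 symbols were on the array, out of 43317 gene names, and 19 of its 58201 probes carried them. MHC class I molecules show peptides from inside the cell to CD8+ T cells. The proteasome cuts proteins into peptides, TAP1 and TAP2 carry the peptides into the endoplasmic reticulum, and tapasin, the product of TAPBP, holds empty class I molecules at the transporter until a heavy chain with its partner beta-2-microglobulin has taken up a peptide. NLRC5 activates these genes in the nucleus together with the RFX factors, and interferon raises most of them.

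The series holds 8 arrays of human cancer cell lines. Each array compared 2 RNA samples of 1 cell line: mock cells that received no transfection, labelled with Cy3, and cells transfected with a small RNA, labelled with Cy5. The arrays held PC3 prostate cancer cells with si-PIR-2 and with si-PIR-3 (siRNAs against PIR, which encodes the iron-binding nuclear protein pirin), SK-MES-1 lung squamous cell carcinoma cells with miR-144-5p and with miR-144-3p, SW1990 pancreatic cancer cells with miR-204-5p, MDA-MB-231 breast cancer cells with miR-204-5p, and PANC1 pancreatic cancer cells with miR-130-5p and with miR-130-3p. The labels name Lipofectamine RNAiMAX as the transfection reagent, and no array held cells transfected with a control RNA. The dyes were not swapped, so that an effect of the small RNA, an effect of transfection and an effect of the dye cannot be told apart on any array. Apart from the 2 siRNAs against PIR in PC3 and miR-204-5p in 2 cell lines, each transfection had 1 array. The labels do not say whether the arrays of a cell line carried separate mock cultures, and p-values on the mock channel may then measure technical spread only. RNA of whole cultures was measured, so that fewer expressing cells and less RNA per cell cannot be told apart.

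The sequences of the miRNAs that the labels name without ambiguity are given from RefSeq, 5′ to 3′, with the seed (bases 2 to 8), the part that pairs with target transcripts, in capitals.
hsa-miR-144-5p: gGAUAUCAucauauacuguaag
hsa-miR-144-3p: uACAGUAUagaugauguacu
hsa-miR-204-5p: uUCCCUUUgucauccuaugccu
The 3 seeds differ from one another. The strands of miR-144 come from 1 hairpin on chromosome 17 and miR-204-5p comes from chromosome 9 (GRCh38.p14). The label miR-130 does not say which of the miR-130 genes was meant, and no sequence is given for it.

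Between 41.39% and 46.37% of the probes were well above background in the mock channel of an array and between 49.75% and 54.62% in the transfected channel, and no spot was saturated. The targeted gene PIR had log2 ratios of transfected over mock of -5.46 and -4.27 on the si-PIR arrays and of -1.59 on the miR-130-5p array, against -0.24 to 0.051 on the other 5 arrays. Of the marker genes of the labelled tissues, HOXB13 was highest in PC3, and in the mock channel KLK3 was well above background on no array and TP63 on the SK-MES-1 arrays alone, whereas the squamous keratin KRT5 was not well above background there. The epithelial keratins KRT8, KRT18 and KRT19 and the mesenchymal VIM were measured in all 5 cell lines, while CDH1 was well above background in the mock channel of 4 arrays, none of them of SK-MES-1 or PANC1. Among leukocyte markers, CD3E was well above background in the mock channel of 4 of 8 arrays, and PTPRC and CD14 on all 8 at mean mock levels of -2.84 to 1.28 on the scale given in the next paragraph. LYZ was not on the array. Of the breast markers, ESR1 and PGR were well above background in the mock channel of 5 and 0 arrays, and GATA3 and ERBB2 in that of all 8, both with their highest level in SW1990 and not in MDA-MB-231. The part of other cell types in the class I values was not tested.

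The question of the mock channels was how much of the class I machinery each cell line carried before transfection. A level is given as the log2 of the background-corrected Cy3 signal minus the 75th percentile of that array, so that 0 stands for a probe at that percentile, and each gene is represented by its brightest probe. Levels were compared between cell lines for the same probe only. SW1990 had the highest level of HLA-B, HLA-C, HLA-F, B2M, TAP1, TAP2 and NLRC5, and PC3 had the lowest level of HLA-B, HLA-C, HLA-F, B2M, TAPBP and NLRC5. Of other genes, 5 of 5 epithelial markers, 4 of 10 transcription factors and 0 of 3 standard proteasome subunits were highest in SW1990. The share of all genes highest there is not given here. In PC3, SK-MES-1 and PANC1, the 2 mock channels of a cell line differed by at most 0.23 for any of the 9 genes. The cell lines differed by 0.44 to 4.74. SW1990 and MDA-MB-231 had 1 mock channel each, so that their own spread is unknown. The tests of their levels borrow the spread of the cell lines with 2.

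HLA-B, a classical heavy chain, had a mock level of 5.10 and 5.15 on the PC3 arrays, 5.56 and 5.56 on the PANC1 arrays, 6.46 and 6.43 on the SK-MES-1 arrays, 6.91 in MDA-MB-231 and 8.44 in SW1990. HLA-C is the other classical heavy chain among the genes described here. Its brightest probe lay at 5.70 and 5.69 in PC3, 6.25 and 6.24 in PANC1, and 7.76 and 7.70 in SK-MES-1. In MDA-MB-231 that probe lay at 8.09 and in SW1990 at 9.03. The brightest probes of HLA-B and HLA-C share 41 identical bases and lie at overlapping positions in the array annotation. They are thus not independent measures of separate genes. The annotation places this HLA-C probe among the HLA-B probes, so that levels and ratios given for HLA-C by it may be those of HLA-B. The HLA-C probe outside the overlap had SK-MES-1 (7.73) above MDA-MB-231 (7.18). By the brightest probes the order of the cell lines was the same for both genes, and SW1990 exceeded PC3 by 9.94-fold for HLA-B and 10.1-fold for HLA-C. By limma every neighbour in this order differed, with the largest adjusted p for MDA-MB-231 over SK-MES-1, where the difference was 0.47 ± 0.062 (standard error, adjusted p = 0.00281) for HLA-B and 0.36 ± 0.063 (adjusted p = 0.00696) for HLA-C.

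HLA-F, a nonclassical heavy chain, followed the same order by its brightest probe, from 5.39 and 5.36 in PC3 and 5.99 and 5.88 in PANC1 to 6.41 and 6.39 in SK-MES-1, 7.61 in MDA-MB-231 and 8.05 in SW1990, a span of 6.38-fold. Its dimmer probe, A_33_P3379967, also ran from PC3 (-1.79) to SW1990 (2.93), but had SK-MES-1 (0.52) above MDA-MB-231 (-0.25), with PANC1 at -0.98. By the brightest probe the step from MDA-MB-231 to SW1990 was 0.44 ± 0.085 (adjusted p = 0.0119). B2M, the light chain that every heavy chain needs, varied less, from 6.64 and 6.59 in PC3 to 7.55 in SW1990, which is 1.91-fold. Its level in SK-MES-1, 7.46 and 7.37, was not separated from that in SW1990 (difference 0.13 ± 0.086, adjusted p = 0.244), and SK-MES-1 was the highest line for B2M after normexp with quantile normalization and after loess with Aquantile.

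By their brightest probes, the transporter genes spanned a wider range of levels than the heavy chains. TAP1 was measured at 3.54 and 3.58 in SK-MES-1, 3.79 and 3.73 in PC3, 4.63 and 4.57 in PANC1, 5.30 in MDA-MB-231 and 7.79 in SW1990, so that SW1990 stood 18.8-fold above SK-MES-1. TAP2 lay at 1.06 and 0.86 in SK-MES-1, 2.83 and 2.89 in PC3, 3.02 and 3.07 in PANC1, 5.03 in MDA-MB-231 and 5.70 in SW1990, a span of 26.8-fold. By the brightest probes, SK-MES-1 cells held the third highest HLA-B and HLA-C levels of the 5 cell lines beside the lowest TAP1 and TAP2 levels, and other probes ranked SK-MES-1 otherwise for the heavy chains, as given with the probes. For TAP1 the step from SK-MES-1 to PC3 was small (0.20 ± 0.056, adjusted p = 0.0327) and PC3 became the lowest line after normexp with quantile normalization and after loess with Aquantile, whereas SK-MES-1 had the lowest TAP2 level under every scaling. PC3 and PANC1 were not separated for TAP2 (difference 0.19 ± 0.087, adjusted p = 0.121).

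TAPBP was the only one of the 9 genes with its highest level in MDA-MB-231, at 5.51, against 5.18 in SW1990, 4.91 and 4.84 in SK-MES-1, 4.53 and 4.46 in PANC1 and 3.74 and 3.66 in PC3. The next brightest TAPBP probe, A_33_P3325914, was highest in SW1990 instead, at 2.55 against 2.28 in MDA-MB-231. NLRC5, the activator of the class I promoters, was dim in all cells, below the 75th percentile of every array. Its level was -1.78 and -2.01 in PC3, -1.59 and -1.55 in PANC1, -0.49 and -0.31 in SK-MES-1, -0.31 in MDA-MB-231 and -0.11 in SW1990. The last 3 cell lines could not be told apart for NLRC5 (adjusted p = 0.114 to 0.575), and PC3 and PANC1 missed the threshold (difference 0.32 ± 0.11, adjusted p = 0.0518). The span of NLRC5 fell from 1.79 to 0.53 after normexp with quantile normalization, which draws dim probes together. A second NLRC5 probe was well above background in the mock channel of 4 arrays, those of SK-MES-1, SW1990 and MDA-MB-231.

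**Figure D1:**
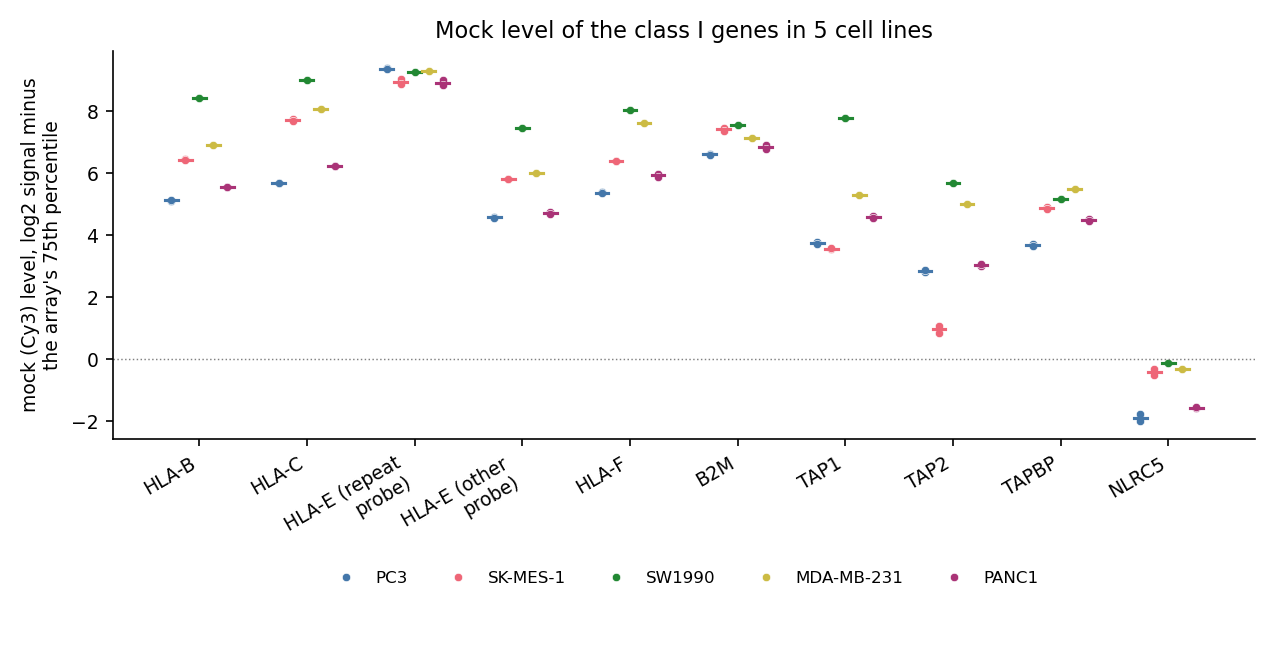
Mock (Cy3) level of each class I gene (horizontal axis) as log2 signal minus the array's 75th percentile (vertical axis), with a point for each array and a bar at the mean of each cell line. The points of PC3, SK-MES-1 and PANC1, the cell lines with more than 1 array, nearly coincide within a cell line. SW1990 is highest for 7 of the 9 genes by their brightest probe, and the HLA-E repeat probe stays between 8.86 and 9.39 where the other HLA-E probe spans 4.56 to 7.46.

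By limma's F-test over the 5 cell lines, all 9 genes passed an adjusted p of 0.05, with adjusted p-values of 1.48e-05 for TAP1 to 0.0221 for HLA-E, and so did 87% of the 23291 genes tested. The highest and the lowest cell line were at least 2-fold apart for 7 of the 9, against 75.4% of all genes. These counts are therefore close to those of any expressed gene. The median span was 2.67 for the 9 genes and 1.63 for all genes on the log2 scale. Over the 10 pairs of cell lines, 79 of the 90 comparisons of the 9 genes passed the threshold, against 63.3% of the comparisons of all genes. The F-test of HLA-E by its brightest probe no longer passed when either PC3 array (adjusted p = 0.0805 without the si-PIR-2 array and 0.0742 without the si-PIR-3 array) or the miR-130-3p array of PANC1 (0.0512) was left out, and the other 8 genes passed in each of these fits.

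HLA-E and HLA-B showed that the probe decides part of these values. HLA-E, a nonclassical heavy chain that presents leader peptides of other class I proteins, has 2 probes. The brightest, A_33_P7431456, lies on chromosome 6 of hg19 from 30460882 to 30460941, and its mock level was nearly flat, from 9.38 in PC3 to 8.93 in PANC1. The other probe, A_32_P460973, lies from 30460729 to 30460788, and its level was 4.60 and 4.56 in PC3, 4.77 and 4.67 in PANC1, 5.82 and 5.81 in SK-MES-1, 6.02 in MDA-MB-231 and 7.46 in SW1990, the order of the brightest HLA-B, HLA-C and HLA-F probes. By this probe SW1990 exceeded PC3 by 2.88 ± 0.071 (7.39-fold, adjusted p = 2.77e-05), and 2 steps of the order did not pass, PANC1 over PC3 (0.14 ± 0.058, adjusted p = 0.0941) and MDA-MB-231 over SK-MES-1 (0.20 ± 0.071, adjusted p = 0.0633). The sequence of the brightest probe resembles an Alu element, a repeat with very many copies in human transcripts. At least 20 bases of it were shared with 9 other probes on the array, all of other genes. The other HLA-E probe shared 20 bases with no probe. Whether the repeat sets the flat level was not tested.

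The probes that stand for HLA-B and HLA-C overlap, which limits what their likeness can show. The brightest HLA-B probe (A_33_P3424800, chromosome 6 of hg19, 31321663 to 31321722) and the brightest HLA-C probe (A_33_P3424803) have 41 identical bases, and the array annotation places the HLA-C probe at 31321644 to 31321703, overlapping it. A further HLA-B probe, A_33_P3379947, shares 50 aligned bases with the first and differs by T27G, counted from the 5′ end of A_33_P3379947. The stretches around that base, capitalised, show the difference.
A_33_P3424800 of HLA-B: gtcaattcctggaaGttgagagagcaaata
A_33_P3379947 of HLA-B: gtcaattcctggaaTttgagagagcaaata
A_33_P3424803 of HLA-C: gtcaattcctggaaGttgagagagcaaata
HLA genes are highly alike and vary between people, so that the values of HLA-B and HLA-C are uncertain as to the gene, and a cell line's own alleles can change a probe's signal. The second HLA-C probe, A_33_P3330109, lies at 31236617 to 31236676, shares no such stretch, and had the same highest and lowest cell lines, with 8.66 in SW1990 and 5.31 in PC3, but placed SK-MES-1 (7.73) above MDA-MB-231 (7.18), with PANC1 at 5.58. The third HLA-B probe, A_33_P3399208, has no position in the annotation and gave another order, with 4.89 in MDA-MB-231, 3.73 in SW1990, 1.14 in PANC1, 0.12 in SK-MES-1 and -1.08 in PC3. The TAP1 probe lies at 32813210 to 32813269 on chromosome 6, and the annotation gives the same position to a probe of the antisense transcript PSMB8-AS1. The antisense probe was dimmer, with mock levels of -3.50 to -0.34, and was well above background in the mock channel of 6 arrays.

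**Figure D2:**
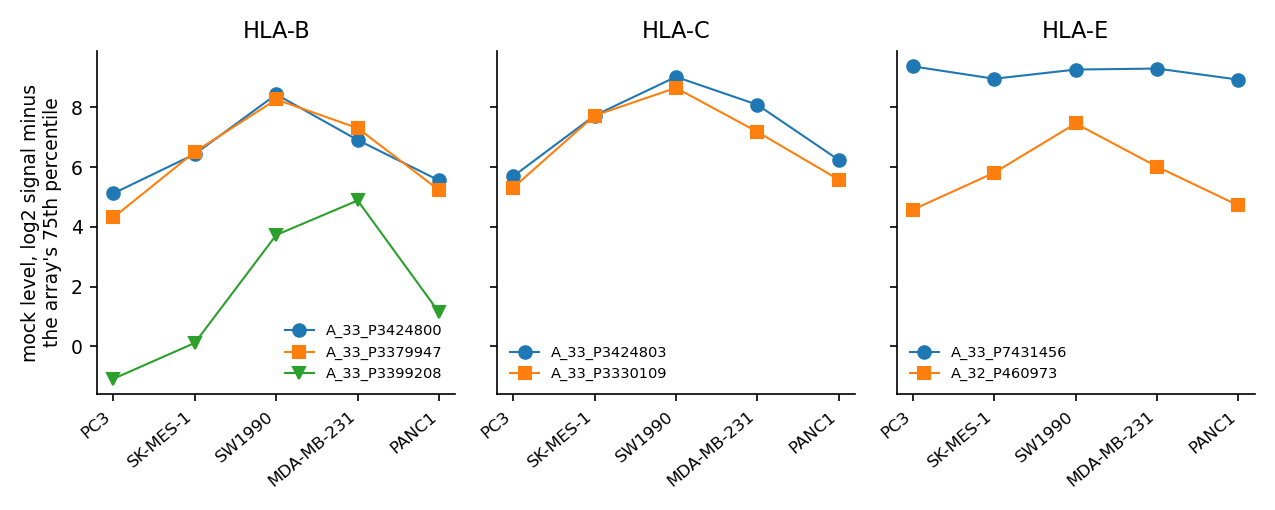
Mean mock level of every HLA-B, HLA-C and HLA-E probe (vertical axis, log2 signal minus the array's 75th percentile) in each cell line (horizontal axis), with lines joining the points of 1 probe. The HLA-E probe A_33_P7431456 is nearly level across the cell lines, A_32_P460973 peaks in SW1990, and the HLA-B probe A_33_P3399208 peaks in MDA-MB-231.

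The question of the ratios was how the class I genes of transfected cells compared with those of mock cells on the same array. Ratios are log2 values of Cy5 over Cy3 as the scanner software gave them, each from 1 array and, except for B2M, from 1 spot, so that a single ratio has no replicate. The 7 to 10 spots of B2M on an array had ratios with an SD of 0.013 to 0.032. On both SK-MES-1 arrays all 9 genes had ratios above 0, where 54.3% and 53.4% of all genes had, and 8 of the 9 lay above the upper quartile of all genes on each. On the miR-130-5p array of PANC1, 8 of the 9 were above 0 and 5 lay above the upper quartile, while on the miR-130-3p array of the same cells 4 of the 9 were above 0. With miR-204-5p, 6 of the 9 were above 0 in SW1990 and 8 in MDA-MB-231. On the si-PIR arrays of PC3, 2 and 1 of the 9 were above 0. The share of all genes above 0 was between 53.2% and 56.2% on every array. In all counts of the 9 genes, HLA-B and HLA-C are counted by overlapping probes and HLA-E by its repeat probe. The other HLA-E probe had the opposite sign with miR-130-3p and in SW1990.

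The median ratio of the 9 genes was 0.46 with miR-144-5p and 0.48 with miR-144-3p in SK-MES-1, 0.51 with miR-130-5p and -0.17 with miR-130-3p in PANC1, 0.025 in SW1990 and 0.19 in MDA-MB-231 with miR-204-5p, and -0.19 with si-PIR-2 in PC3 and -0.17 with si-PIR-3. The median of all genes was between 0.025 and 0.094 on every array. After normexp and loess the median of the 9 genes with miR-130-3p was 0.0012, whereas the medians on the other 7 arrays kept their sign.

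Few of these differences were large. Past 2-fold in either direction, there was 1 of the 9 genes with si-PIR-2, where 8.78% of all genes were past 2-fold. None of the 9 was past 2-fold with si-PIR-3 (6.26% of all genes), miR-144-5p (6.17%), miR-144-3p (5.7%), miR-204-5p in SW1990 (6.61%) or in MDA-MB-231 (5.31%), miR-130-5p (13.8%) or miR-130-3p (8.45%). At 1.5-fold or more, 1 gene was higher with si-PIR-2 (13.3% of all genes), 3 with miR-144-3p (9.9%) and 3 with miR-130-5p (19.4%), and none of the 9 was 1.5-fold lower on any array, where 4.84% to 15.1% of all genes were. The 3 with miR-144-3p were HLA-B, HLA-C and HLA-F, and the probes of HLA-B and HLA-C overlap.

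HLA-B had ratios of -0.21 and -0.37 with siRNAs 2 and 3 against PIR, 0.57 and 0.76 with miR-144-5p and miR-144-3p, -0.020 and 0.30 with miR-204-5p in SW1990 and MDA-MB-231, and 0.53 and -0.23 with miR-130-5p and miR-130-3p. HLA-C, whose probe overlaps that of HLA-B, had -0.23 and -0.33 with the siRNAs, 0.58 and 0.75 with the miR-144 strands, 0.098 and 0.29 with miR-204-5p, and 0.51 and -0.20 with the miR-130 strands. By the brightest probes both genes were thus above 0 with both strands of miR-144 and with miR-130-5p, and below 0 with the siRNAs and miR-130-3p. The HLA-B probe A_33_P3379947 had the same signs on these arrays. The HLA-B probe A_33_P3399208 differed with si-PIR-2, where it had 0.17. The HLA-C probe outside the overlap had the same signs on all 8 arrays, with 0.53 and 0.78 with the miR-144 strands and 0.57 and -0.099 with the miR-130 strands.

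HLA-F had -0.10 and -0.17 with the siRNAs, 0.46 and 0.60 with the miR-144 strands, 0.11 and 0.21 with miR-204-5p in SW1990 and MDA-MB-231, and 0.26 and -0.39 with the miR-130 strands. The dimmer HLA-F probe had 0.19 with si-PIR-2, opposite in sign to the brightest, and -1.02 with miR-130-3p. HLA-E by its repeat probe had -0.45 and -0.20, 0.15 and 0.48, 0.025 and 0.092, and 0.47 and 0.35 on the same 8 arrays in the same order. By its other probe HLA-E had -0.23 and -0.15, 0.39 and 0.40, -0.030 and 0.36, and 0.66 and -0.24. The 2 HLA-E probes therefore disagreed on miR-130-3p, where the repeat probe was above 0 and the other below it, as were the other heavy chains.

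B2M stood apart from the heavy chains with miR-130-5p, where its ratio was -0.21, and had 0.059 with miR-130-3p. Its other ratios were -0.38 and 0.15 with the siRNAs, 0.42 and 0.54 with the miR-144 strands, and -0.069 and -0.0046 with miR-204-5p. B2M was thus highest on the SK-MES-1 arrays.

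TAP1 had 0.30 and -0.066 with the siRNAs, 0.41 and 0.46 with the miR-144 strands, -0.074 and 0.25 with miR-204-5p, and 0.72 and -0.18 with the miR-130 strands. TAP2 had 1.05 and -0.046 with the siRNAs, 0.46 and 0.38 with the miR-144 strands, 0.19 and 0.069 with miR-204-5p, and 0.72 and 0.060 with the miR-130 strands. The value of 1.05 with si-PIR-2 was the highest ratio of any of the 9 genes on any array, and the array of si-PIR-3 did not share it. The second TAP2 probe had 0.21 and 0.57 with the siRNAs and was well above background in the mock channel of 1 array only.

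TAPBP had -0.19 and -0.41 with the siRNAs, 0.52 and 0.43 with the miR-144 strands, 0.0047 and 0.19 with miR-204-5p, and 0.66 and 0.15 with the miR-130 strands. By the next brightest TAPBP probe the ratio was 0.23 with si-PIR-2 and -0.19 with miR-130-3p, opposite in sign to these values. NLRC5 had -0.062 and -0.11, 0.47 and 0.25, 0.077 and 0.10, and 0.29 and -0.17 on these arrays in the same order. The pattern of signs of NLRC5 was that of HLA-C and HLA-F, all by their brightest probes. After normexp and loess NLRC5 had 0.081 with miR-130-5p and 0.0097 with miR-130-3p, so that the latter changed sign. The second NLRC5 probe had -0.11 in MDA-MB-231, opposite in sign to the brightest. It also had 0.58 with si-PIR-2, where its mock channel was not well above background.

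**Figure D3:**
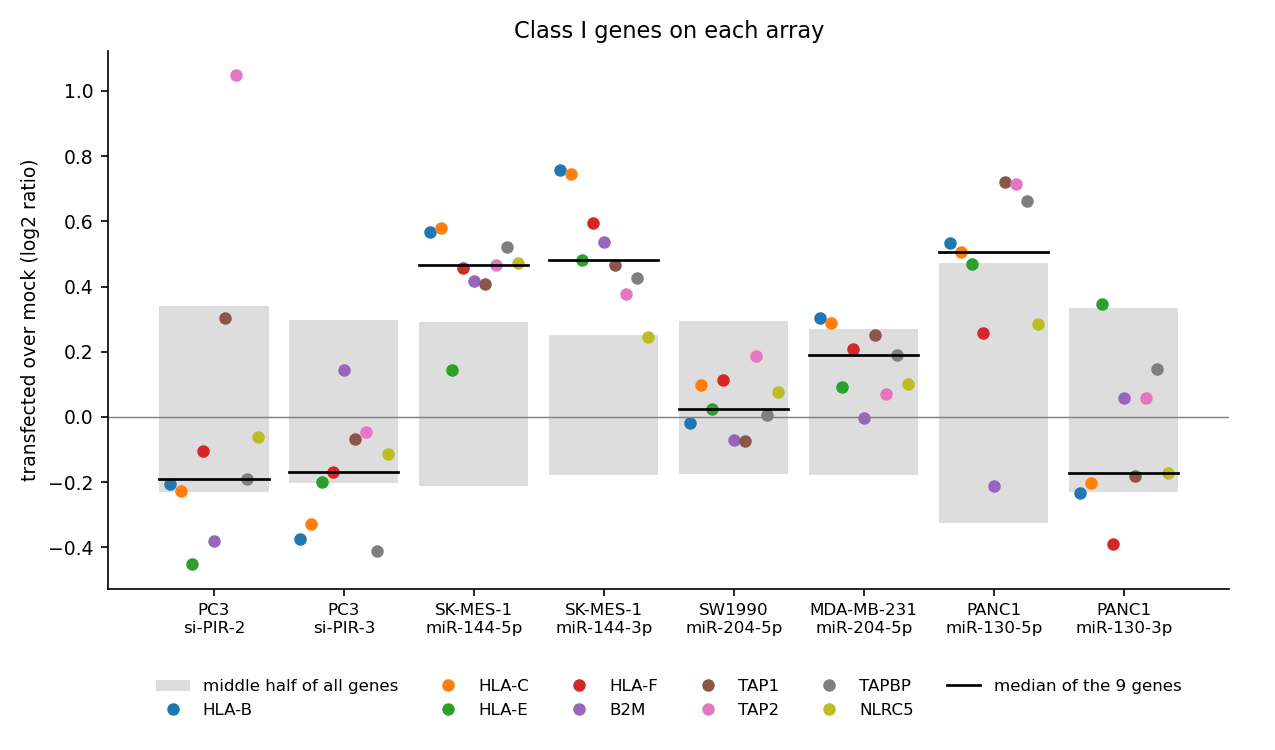
Log2 ratio of transfected over mock (vertical axis) for each class I gene on each array (horizontal axis), with the median of the 9 genes as a black bar and the range between the quartiles of all genes shaded. Of the 9 points, 8 lie above the shading on each SK-MES-1 array and 5 on the miR-130-5p array, and TAP2 with si-PIR-2 is the only point above 1.

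The 2 strands of miR-130 gave different class I ratios in the same cells. The ratio with miR-130-5p exceeded that with miR-130-3p in 8 of the 9 genes, against 54.6% of all genes. The exception was B2M (-0.27), and the median difference was 0.65, with a range up to 0.90 for TAP1. The difference was at least 1.5-fold in 5 of the 9, against 17.8% of 18731 genes, and the median difference of all genes was 0.071. Among these 5 are HLA-B and HLA-C, whose probes overlap, and HLA-E is counted by its repeat probe. The strands of miR-144 in SK-MES-1 differed less, by -0.34 to 0.23 with a median of -0.12, and the siRNAs in PC3 by -0.53 to 1.09 with a median of 0.099. These differences were not tested, as each of these transfected RNAs had 1 array. Across all probes well above background in both, the mock channels of the 2 PANC1 arrays differed with an SD of 0.18 and the transfected channels with an SD of 0.69, against 0.19 and 0.30 for SK-MES-1 and 0.20 and 0.54 for PC3. The part of handling of the transfected RNA in these differences was not tested.

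Transfected over mock, whatever the small RNA, was tested over the means of the 5 cell lines, where transfection and the dye cannot be told apart. The mean ratio was above 0 for all 9 genes, from 0.042 ± 0.11 (standard error, n = 5) for B2M to 0.31 ± 0.093 for TAP2, and 0 of the 9 passed an adjusted p of 0.05 by limma. The smallest adjusted p was 0.144, for TAP2, which was also the only one of the 9 with an unadjusted p under 0.05, and the mean ratio of TAP2 was above 0 in 5 of 5 cell lines. For the other genes the adjusted p was between 0.283 for TAP1 and 0.856 for B2M. Among 18731 genes, 0.198% were called higher and 0.155% lower. Without SK-MES-1 the mean ratio was -0.067 for B2M and 0.036 for HLA-B, while TAP2 kept 0.29. For the siRNAs against PIR in PC3, the mean of the 2 arrays lay between -0.33 ± 0.19 for HLA-E and 0.50 ± 0.33 for TAP2, with adjusted p-values of 0.574 to 0.869. For miR-204-5p in SW1990 and MDA-MB-231, the means lay between -0.037 ± 0.10 for B2M and 0.19 ± 0.11 for HLA-C, with adjusted p-values of 0.426 to 0.854. In these last 2 tests limma called 0% of the genes in either direction, while 2346 of 22503 genes and 3911 of 20563 genes had an unadjusted p under 0.05, none of them among the 9. The mock RNA of a cell line counts as 1 control sample in these tests, which leave out its own spread, and 2 arrays leave little power.

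Across the 8 arrays HLA-B, HLA-C and HLA-F varied together, as a description over arrays that share cell lines and may share mock RNA. HLA-F and HLA-B had a Pearson r of 0.93, NLRC5 and HLA-B 0.89, TAPBP and HLA-B 0.88 and TAP1 and HLA-B 0.80. HLA-B and HLA-C reached 0.99 with overlapping probes. B2M and HLA-B had 0.50, TAP2 and HLA-B 0.23, and TAP2 and B2M -0.43, the lowest of the 36 pairs. HLA-E and HLA-B had 0.68 by the repeat probe and 0.91 by the other probe, and HLA-E and HLA-F had 0.44 by the repeat probe. The median over all pairs was 0.67, and 0.74 with the other HLA-E probe.

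Of the 18722 other genes, the 5 whose ratios were most like the mean of the 9 were XLOC_l2_012953 (r = 0.985 over 8 arrays), LOC100505912 (0.979), HLA-J (0.976), SNORD47 (0.966) and THC2582227 (0.965). XLOC_l2_012953 is a noncoding transcript whose probe lies in the class I region of chromosome 6 and HLA-J is a class I pseudogene, and their probes share 22 bases with each other. HLA-J had ratios of 0.61 and 0.76 with the miR-144 strands, 0.49 and -0.27 with the miR-130 strands and -0.15 and -0.29 with the siRNAs. SNORD47 is a small nucleolar RNA. An r above 0.9 was reached by 0.235% of the other genes.

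The promoters of the class I genes carry sequence elements through which they are known to be induced together. RefSeq promoter windows were at hand for 7 of the 9 genes, and the 250 bases before the transcription start were searched on both strands for a pair of GAAA separated by any 2 bases (the core of the interferon-stimulated response element), TGACG (the core of the X2 box, which CREB-type factors bind) and CCAAT (the core of the Y box, which NF-Y binds). The GAAA pair was found for HLA-F, B2M, TAP1, TAP2 and TAPBP, against 3.02% of 35116 windows. TGACG was found for HLA-B, HLA-C, B2M and TAP2, against 21.2% of windows, and CCAAT for HLA-B, HLA-C, HLA-F, B2M and TAP1, against 32.0%. In HLA-B and HLA-C a TGACG starts 25 bases ahead of an ATTGG, the reverse complement of CCAAT, and in B2M the spacing is 26 bases. The stretches that hold most of these letters are shown in the direction of transcription, with each match in capitals, from GRCh38.p14.
HLA-B, chr6:31357221-31357295, minus strand: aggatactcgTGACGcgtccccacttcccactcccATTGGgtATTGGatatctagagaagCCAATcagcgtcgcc
HLA-C, chr6:31272134-31272207, minus strand: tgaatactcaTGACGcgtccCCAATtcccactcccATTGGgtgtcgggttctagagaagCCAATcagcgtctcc
HLA-F, chr6:29723268-29723391, plus strand: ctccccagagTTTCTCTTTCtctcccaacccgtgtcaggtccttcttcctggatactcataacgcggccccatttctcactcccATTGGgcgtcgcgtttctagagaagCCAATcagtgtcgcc
B2M, chr15:44711363-44711482, plus strand: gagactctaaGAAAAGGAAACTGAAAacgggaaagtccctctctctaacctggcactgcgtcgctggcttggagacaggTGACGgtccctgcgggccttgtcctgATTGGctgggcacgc
TAP1, chr6:32853813-32853848, minus strand: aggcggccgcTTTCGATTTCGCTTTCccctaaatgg
TAP2, chr6:32838760-32838807, minus strand: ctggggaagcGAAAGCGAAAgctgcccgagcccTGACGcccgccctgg
TAPBP, chr6:33314079-33314108, minus strand: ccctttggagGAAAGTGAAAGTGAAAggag
The CCAAT matches farthest from the start, in TAP1 and HLA-C, lie outside the stretches shown. These matches describe letters in the reference genome, not binding in these cells. Only exact matches were counted, so that a promoter without a match may still hold an element with other letters.

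Other genes of the pathway are given list by list. The immunoproteasome subunits PSMB8, PSMB9 and PSMB10 and the proteasome activator subunits PSME1 and PSME2, which shape class I peptides, all had their highest mock level in SW1990, and all 5 passed the F-test, as did 87% of all genes. PSMB9 spanned 4.34 on the log2 scale, from 1.47 in PC3 to 5.81 in SW1990, and PSMB8 spanned 4.03. Their ratios were apart from those of the 9 genes with miR-130-5p, where 0 of the 5 were above 0 and their median was -0.13, and with miR-130-3p, where the median was -0.55. The standard proteasome subunits PSMB5, PSMB6 and PSMB7 passed the F-test with spans of 0.79 to 1.23, and their median ratio lay between -0.17 and 0.017 on the 8 arrays, PSMB5 having -0.98 with miR-130-5p.

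Of the 6 genes of peptide trimming and loading, all 6 passed the F-test (87% of all genes) and 5 had measured ratios on all arrays. ERAP2, an aminopeptidase that trims peptides, was highest in SK-MES-1 (5.16) and lowest in PANC1 (1.12). The chaperone CALR had ratios above 0 on 7 of 8 arrays, between -0.075 and 0.45, whereas the median of the 5 was -0.38 with miR-144-5p.

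Of 10 transcription factors that act on class I promoters, all 10 passed the F-test (87% of all genes) and 9 had measured ratios. IRF1, a factor that interferon induces, had a ratio of 0.87 with miR-130-5p and -0.55 with miR-130-3p. RFX5, which binds the X box together with NLRC5, had -0.33 and -0.34 with the miR-144 strands and -0.53 and -1.25 with the miR-130 strands. IRF9 had 0.39 and 0.45 with the miR-144 strands.

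Of 10 further class I and class I-like genes, 9 had a measured mock level, all 9 of which passed the F-test (87% of all genes), and 6 had measured ratios. HLA-G, whose probe like those of the other HLA genes may take up transcripts of its relatives, had 0.42 and 0.59 with the miR-144 strands, 0.59 and -0.15 with the miR-130 strands and -0.049 and -0.042 with the siRNAs. It thus had the signs of HLA-B on the SK-MES-1 and PANC1 arrays. The stress ligand MICB had ratios of 0.94 and 0.92 with the siRNAs and -0.078 and -0.037 with the miR-144 strands, opposite in sign to HLA-B on these 4 arrays. MICA of the same list differed from MICB, with -0.21 and 0.44 with the siRNAs and 0.38 and 0.33 with the miR-144 strands. Of 8 MHC class II genes, whose products present peptides to CD4+ T cells, 3 had measured ratios on all arrays. HLA-DRA was well above background in the mock channel of 4 arrays, and HLA-DRB1 spanned 5.46, from -0.42 in PC3 to 5.05 in SW1990. Over the 5 cell lines, 0 genes of these lists passed an adjusted p of 0.05 for transfected over mock.

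**Figure D4:**
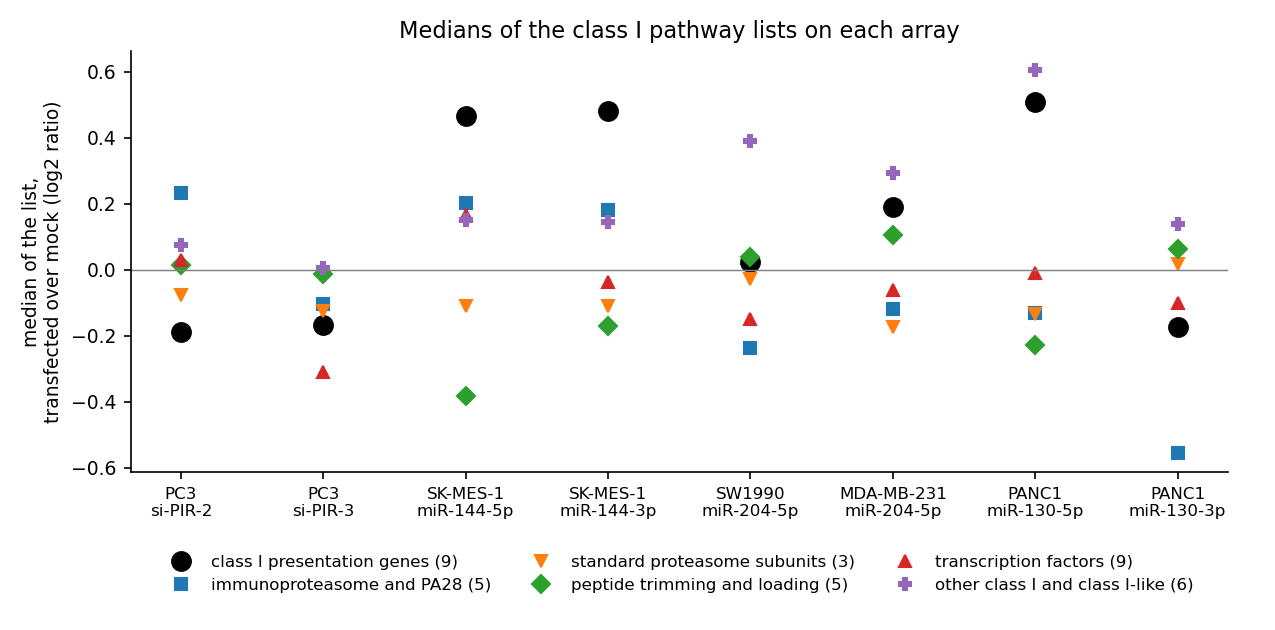
Median log2 ratio of transfected over mock (vertical axis) of the 9 class I genes and of 5 lists of pathway genes on each array (horizontal axis), with the number of genes measured on all arrays in the legend. With miR-130-5p the 9 class I genes (0.51) and the other class I genes (0.61) lie above 0, whereas the immunoproteasome list lies at -0.13.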

How the data were processed

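Total RNA was extracted with Trizol and each of the 8 two-colour arrays was hybridised with Cy3-labelled mock RNA and Cy5-labelled RNA of transfected cells. All 8 lay on 1 slide. The deposited scanner files hold, per the file headers, an intensity for each channel, background-subtracted and dye-normalized by the Feature Extraction software, and LogRatio, the log10 ratio of Cy5 over Cy3. The log10 ratios of the value table that the authors deposited are identical to these. Probe positions are those of the array annotation (hg19). Outlier and control spots were left out, spots of a probe were averaged, and the brightest probe that passed the filter stood for a gene. Ratios were converted to log2. Mock levels were log2 of the processed Cy3 intensity minus each array's 75th percentile. Genes had to be well above background in the mock channel of all arrays of at least 1 cell line (mock levels) or in either channel of every array used (ratios). Tests used limma 3.58.1 in R 4.3.3 with Benjamini-Hochberg adjustment over all genes tested and a threshold of 0.05, and the code was tested on simulated data. No depth applies to arrays, whose number limits the precision. The genes, lists and tests were chosen with earlier results of these data known. The named genes were the 9 members, genes of the lists and the 5 genes most correlated with the mean of the 9. Alternatives were the background correction, scaling, centring, filter, probe choice, value table, fold threshold and omission of arrays or cell lines. Columns of the scanner's own p-values were not used. Figures were drawn with matplotlib 3.10.9. Sequences came from RefSeq tables (GRCh38.p14). Some genes of the lists and 1 probe sequence are not reported here.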

Additional observations from a re-analysis of the deposited data

Results flagged for a closer look

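With miR-204-5p, HLA-B by its brightest probe and TAP1 had ratios of opposite sign in the cell lines. The log2 ratio of HLA-B was -0.020 in SW1990 and 0.30 in MDA-MB-231. That of TAP1 was -0.074 in SW1990 and 0.25 in MDA-MB-231. Each cell line had 1 array, and the difference was not tested. After normexp and loess the HLA-B ratio in SW1990 changed sign. Other HLA-B probes disagreed in SW1990, with 0.022 by A_33_P3379947 and -0.082 by A_33_P3399208.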

How the results depend on the processing

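Averaging the probes of a gene left 0 of the 9 genes past 2-fold with si-PIR-2, and a threshold of 1.5-fold gave 3 with miR-144-3p and 3 with miR-130-5p. The mean ratio of B2M over the cell lines was -0.067 (limma, adjusted p = 0.707) without SK-MES-1, and over all omissions of a cell line it ranged from -0.067 to 0.082. With the mean over probes, TAPBP had 0.15 (adjusted p = 0.806) for si-PIR and -0.022 (adjusted p = 0.929) for miR-204-5p, opposite in sign to its brightest probe. The causes were not tested. None of the 9 genes passed the tests of transfected over mock under any alternative run. Without the filter on dim probes, HLA-E by its brightest probe missed the threshold for mock levels (adjusted p = 0.0533). Over all genes, the calls across the 5 cell lines numbered 66, against 245 after normexp and loess, 24 without a filter, 152 with both channels above background, 695 with 8 arrays as units, and 3 to 8 when a cell line was left out. For miR-204-5p, normexp and loess gave 1342 calls and the filter on both channels 5. The HLA-E probe A_32_P460973 was added as an alternative after seeing the data. A block for the slide was not run, since all arrays shared 1 slide. No paired analysis was possible because the groups share fewer than 2 replicate numbers. Median scaling moved the median of all genes by up to 0.28 between cell lines. Dim probes limit NLRC5.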
